A study of Mus musculus with 20 samples.

Results

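The Wnt ligands, their Frizzled receptors and 2 families of secreted Wnt inhibitors, Sfrp and Dkk, were examined in cultured mouse muscle cells differentiated into myotubes. Members were taken by gene symbol: every listed gene named Wnt, Fzd, Sfrp or Dkk followed by a number, with an a or b where a Wnt carries one. The rule gave 26 of the 26722 genes in the table, of which 12 are Wnt ligands, 9 are Frizzled receptors, 3 are Sfrp genes and 2 are Dkk genes. Family members that are not listed, such as Wnt7a, have no values here. Class counts and shares below cover the listed genes only. Of these, 21 passed the filter on low counts and were tested, among 14605 genes tested in all.

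Wnts are secreted lipid-modified proteins that bind the cysteine-rich domain of Frizzled receptors at the cell surface. With the co-receptors Lrp5 or Lrp6 they stabilise beta-catenin, and through Ror and Ryk receptors and the planar polarity proteins they act without it. Sfrp proteins carry a Frizzled-type domain and bind Wnts outside the cell, whereas Dkk proteins act on Lrp5 and Lrp6. MuSK, the muscle-specific receptor kinase of the neuromuscular synapse, carries a Frizzled-like domain of its own, and Wnt4 and Wnt11 have been described as ligands of it.

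The cells were C2C12, an established mouse myoblast line that fuses into myotubes, differentiated for 5 days in serum-reduced medium and then treated for 16 h. All 5 groups received 7.7 nM of an antibody and had 4 libraries each. The control received b12 hIgG4, a negative control antibody, and a second group received bivalent 13-3B5 hIgG4, an activating MuSK antibody. In the remaining 3 groups 0.1 nM neural agrin, the natural activator, was given together with b12 hIgG4 (the agrin group), 13-3B5xb12 or 11-3F6xb12. These last antibodies bind with 1 arm and are described by the labels as inhibiting MuSK. The libraries are described as biological replicates, but nothing says whether they came from separate cultures on separate days, so p-values measure the spread between these libraries. All libraries came from 1 cell line without nerve or other tissue.

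Library totals ran from 18424881 to 23343903 counts. All 8 myotube markers were above 1 CPM on average (CPM stands for counts scaled to equal library totals), and their summed level lay between 8274 and 10583 CPM over the 20 libraries. All 4 markers of undifferentiated myoblasts and all 5 of dividing cells were above 1 CPM too. They summed to 47.1 to 69.2 CPM and to 97.7 to 207 CPM. The levels below are those of the whole culture. Plin1 of adipocytes, Cdh5 and Kdr of endothelium and Ptprc and Adgre1 of macrophages had at most 3 counts in every library. Other markers of these lists were seen at low levels, with Cd68 at up to 1.54 CPM, Pecam1 at up to 0.776 CPM and Fabp4 at up to 0.293 CPM in a library. There were 3 libraries that stood apart, which were agrin with 13-3B5xb12 replicate 1 and control replicate 2 on the second principal component, and agrin replicate 3 with 9.07 CPM of summed liver markers against at most 0.254 CPM elsewhere. The first principal component held 21% of the variance and separated the libraries numbered 1 and 2 from those numbered 3 and 4. The labels do not say what a shared replicate number stands for.

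The sequences of Wnt11 and Sfrp2 upstream of their start sites are shown because these genes had the smallest p-values for replicate number among the members. Each is the 250 bases before an annotated start, 5′ to 3′ on the strand of the gene, from RefSeq on GRCm38.p6. Capitals mark a match to a word bound by TCF/LEF factors, the nuclear partners of beta-catenin.
Wnt11, chr7:98834862-98835111, plus strand: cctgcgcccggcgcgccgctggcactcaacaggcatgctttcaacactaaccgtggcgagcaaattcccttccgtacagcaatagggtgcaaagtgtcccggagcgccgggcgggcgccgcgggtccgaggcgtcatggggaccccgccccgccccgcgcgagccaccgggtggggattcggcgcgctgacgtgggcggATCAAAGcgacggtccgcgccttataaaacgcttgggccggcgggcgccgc
Sfrp2, chr3:83766071-83766320, plus strand: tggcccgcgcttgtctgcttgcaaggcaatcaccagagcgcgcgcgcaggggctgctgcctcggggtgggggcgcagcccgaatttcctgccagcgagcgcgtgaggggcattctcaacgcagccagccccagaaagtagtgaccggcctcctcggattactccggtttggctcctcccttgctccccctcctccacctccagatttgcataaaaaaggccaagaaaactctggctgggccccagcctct
The words searched, on both strands, were CTTTG followed by AA, AT, TA or TT. The match in Wnt11 lay on the opposite strand, from 51 to 45 bases upstream of the start, and the Sfrp2 window held none. Wnt11 has a second annotated start, whose window (chr7:98838595-98838844, not printed) held none either. In all, 16 of the 26 members had an entry, with 19 start sites between them. A TCF/LEF word stood in 3 of these 19 windows, those of Wnt11, Fzd7 and Wnt5b, and in 14.8% of all 32851 windows of the same length. The E-box, CANNTG, which muscle regulatory factors of the MyoD family bind, stood in 11 of the 19 windows and in 66.2% of all windows.

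A mean above 1 CPM over the 20 libraries was found for 20 of the 26 genes. They were all 9 listed Frizzled receptors, all 3 listed Sfrp genes, both listed Dkk genes and 6 of the 12 listed Wnt ligands. Wnt7b, Wnt5b, Wnt5a, Wnt1, Wnt3 and Wnt2b were not above it. In every single library, 13 of the genes were above 1 CPM. Just inside the threshold was Wnt4 with a mean of 1.02 CPM, above 1 CPM in 11 of 20 libraries, and just outside it was Wnt7b with a mean of 0.575 CPM, above 1 CPM in 3 libraries. Leaving the mitochondrial genes out of the library totals raised these means to 1.52 and 0.854 CPM and left the count at 20.

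Among the Wnt ligands, levels between genes were compared per kilobase of exon, since longer transcripts give more reads. Wnt10a (chromosome 1, 74791516 to 74804179 on GRCm38) had the highest level at 11.1 ± 1.32 CPM per kb (SD, n = 20), or 54.1% of the summed Wnt level. Wnt10b (chromosome 15, 98770712 to 98778150), like Wnt10a a ligand of the beta-catenin route and known for holding back fat cell formation in muscle precursors, followed at 5.68 ± 0.545 CPM per kb. Wnt9a (chromosome 11, 59306928 to 59333552), which has been reported to bind MuSK, followed at 2.10 ± 0.471 CPM per kb. Together these 3 ligands made up 91.8% of the summed level of the 12 Wnt genes. Wnt6, Wnt11 and Wnt4 lay lower, at 0.741, 0.470 and 0.243 CPM per kb.

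Wnt10a was measured at 31.1, 30.5, 22.5 and 23.1 CPM in control replicates 1 to 4 and at 27.3, 27.1, 28.4 and 24.5 CPM with bivalent 13-3B5. With agrin it was at 27.9, 29.1, 24.9 and 26.6 CPM, with agrin and 13-3B5xb12 at 34.4, 27.1, 25.9 and 26.3 CPM, and with agrin and 11-3F6xb12 at 30.0, 33.0, 27.7 and 22.2 CPM. The 5 groups overlapped, and the control held both high and low values. Wnt10b was measured at 18.4, 16.5, 21.1 and 22.6 CPM in the control, 20.6, 18.9, 18.8 and 16.9 CPM with bivalent 13-3B5 and 19.99, 21.7, 17.9 and 19.9 CPM with agrin. It was at 19.7, 19.4, 20.6 and 19.99 CPM with agrin and 13-3B5xb12 and at 15.6, 16.8, 19.6 and 21.2 CPM with agrin and 11-3F6xb12. No group of Wnt10b stood outside the range of the others.

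Among the Wnt genes, 2 pairs are neighbours in the genome, and the members of each pair had unlike levels. Wnt6 ends 6.19 kb before Wnt10a on chromosome 1, with mean levels of 1.62 and 27.5 CPM. Wnt1, whose protein is the founding member of the family, lies 11.7 kb from Wnt10b on chromosome 15, with mean levels of 0.0135 and 19.3 CPM. Wnt1, Wnt2b, Wnt3, Wnt5a and Wnt5b failed the filter on low counts and were not tested. Of these, Wnt5b, a ligand of the route without beta-catenin, was the highest at 0.278 ± 0.202 CPM (SD, n = 20). A library of these totals cannot tell a gene at or under 3 counts from none, which is between 0.129 and 0.163 CPM. Wnt7b, the least abundant member tested, overlaps a listed antisense gene, and whether the counting used strand is not given in the sources used here.

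The Frizzled receptors spanned a wide range, with Fzd1 and Fzd2 at the top. Fzd1 (chromosome 5, 4753839 to 4758035, minus strand) had 21.6 ± 1.80 CPM per kb (SD, n = 20), or 40.2% of the summed Frizzled level. Fzd2 (chromosome 11, 102604396 to 102608058) had 13.5 ± 1.02 CPM per kb. Fzd7 (chromosome 1, 59482424 to 59486955), known as the receptor of Wnt7a in muscle stem cells, had 9.21 ± 1.05 CPM per kb, and these 3 genes held 82.3% of the Frizzled level. Fzd6, Fzd5 and Fzd3 followed at 4.26, 2.05 and 1.77 CPM per kb. Fzd9, which has been studied at the neuromuscular junction, Fzd8 and Fzd4 were at 0.694, 0.462 and 0.295 CPM per kb. On the same scale Musk stood at 13.9 CPM per kb and its co-receptor Lrp4 at 19.7 CPM per kb, so that of the Frizzled genes Fzd1 alone had a higher mean than both.

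Fzd2 was measured at 53.9, 47.8, 44.3 and 51.1 CPM in the control, 44.0, 44.8, 48.1 and 51.4 CPM with bivalent 13-3B5 and 57.0, 55.7, 47.7 and 47.8 CPM with agrin. It was at 47.6, 50.0, 53.3 and 52.6 CPM with agrin and 13-3B5xb12 and at 45.9, 51.7, 46.6 and 48.0 CPM with agrin and 11-3F6xb12. All 5 groups overlapped.

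The inhibitors were lower than the leading ligands and receptors. Sfrp2 (chromosome 3, 83766321 to 83774316) had the highest level among them at 1.62 ± 0.705 CPM per kb (SD, n = 20). Sfrp1 (chromosome 8, 23411502 to 23449632) and Dkk2 (chromosome 3, 132085292 to 132180304) followed at 1.09 ± 0.356 and 1.07 ± 0.308 CPM per kb. Sfrp1 and Dkk2 differed by less than the SD of either gene, and Sfrp2 lay above them by less than its own SD but by more than theirs. Dkk3, a divergent member of its family, and Sfrp4 were at 0.608 and 0.404 CPM per kb. The relatives Frzb and Wif1, further secreted Wnt binders outside the symbol rule, had means of 0.0136 and 0.255 CPM.

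**Figure D1:**
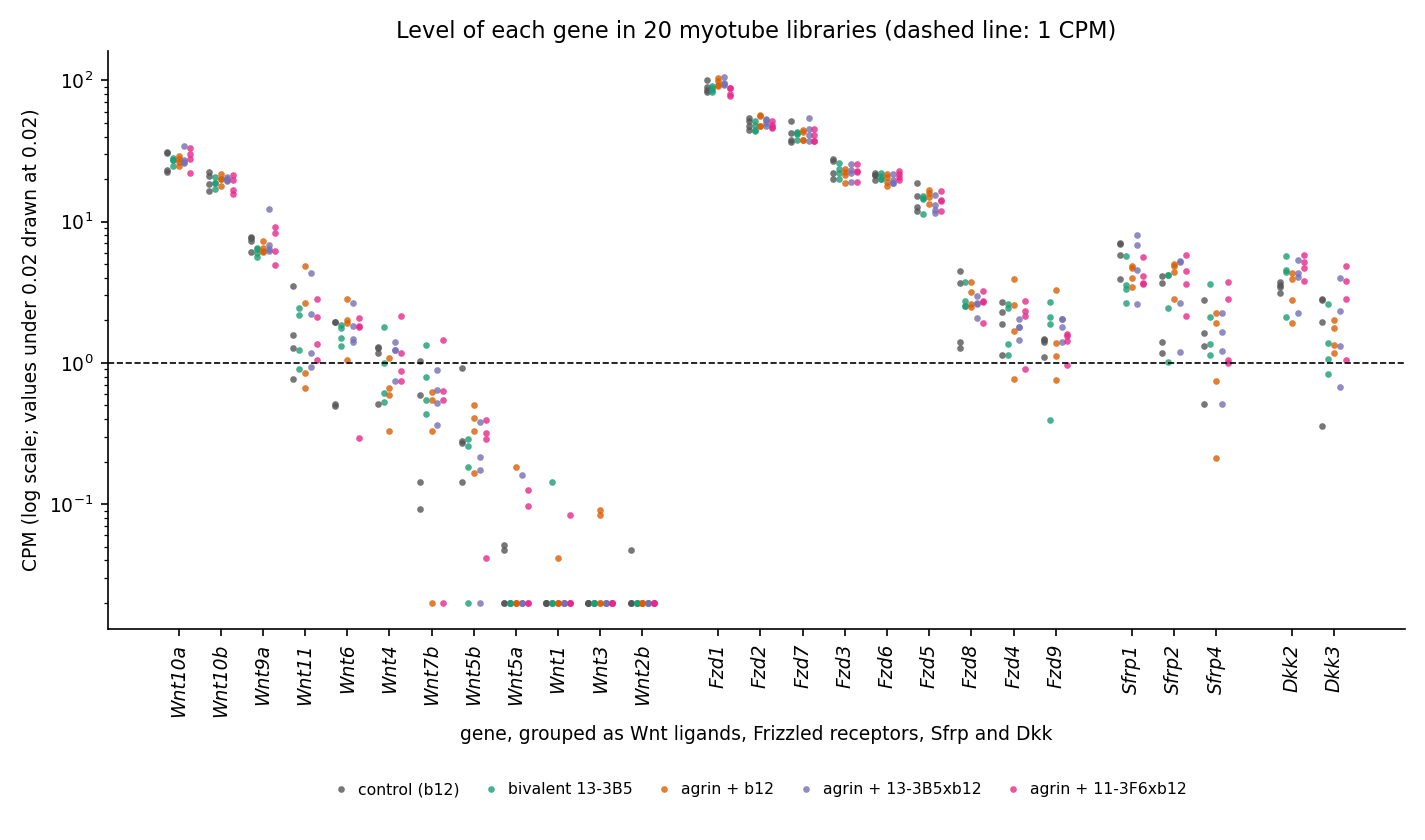
Level of each of the 26 genes in each of the 20 libraries, as CPM on a logarithmic axis, with 1 point per library coloured by treatment and values under 0.02 CPM drawn at 0.02. Fzd1 lies between 77.9 and 105 CPM, 6 Wnt genes have means under the dashed line at 1 CPM, and among the 21 tested genes Fzd1 alone has compared treatments whose points do not overlap.

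Whether MuSK activation or inhibition changed these genes was addressed by a test of any difference among the 5 treatments and by 6 comparisons of 2 groups. In edgeR's quasi-likelihood test with Benjamini-Hochberg adjustment over all genes, 0 of the 21 tested members had an adjusted p under 0.05 in the test among 5 treatments, where 0% of all genes did. At an unadjusted p under 0.05 there was 1 member, Fzd1 (unadjusted p = 0.0283), beside 2.25% of all genes. DESeq2 called 0 members as well. Comparisons that involve agrin share the 4 agrin libraries, so their results are not independent of one another.

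Fzd1 was measured at 88.9, 101, 84.9 and 82.3 CPM in the control, 85.7, 91.7, 83.0 and 88.6 CPM with bivalent 13-3B5 and 91.7, 98.6, 93.1 and 104 CPM with agrin. It was at 105, 93.1, 94.9 and 95.0 CPM with agrin and 13-3B5xb12 and at 88.5, 88.4, 77.9 and 80.5 CPM with agrin and 11-3F6xb12. The libraries with agrin alone or with 13-3B5xb12 were high, those with 11-3F6xb12 or with bivalent 13-3B5 lay below all of them, and the control spanned most of the range. The margin between bivalent 13-3B5 and agrin was narrow, from 91.69 to 91.70 CPM. Treatment went with 52.5% of the spread of its log2 CPM over the 20 libraries, the largest such share among the 21 members. For unrelated values 21.1% would be the average of a gene not picked for its share, and the largest of 21 would lie above that. The difference between the highest and the lowest group mean, 97.1 ± 5.61 and 83.8 ± 5.43 CPM (SD, n = 4 each), was small in relation to the level of the gene.

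With agrin against the control, 0 of 21 members were called by edgeR's adjusted p (0% of all genes), 0 had an unadjusted p under 0.05 (2.85% of all genes) and 0 had groups that did not overlap (1.72% of all genes). The smallest p belonged to Sfrp1, whose protein binds Wnts in the extracellular space. Sfrp1 was measured at 7.01, 6.97, 3.94 and 5.79 CPM in the control and at 4.82, 3.43, 4.72 and 4.00 CPM with agrin, so that 3 of the 4 control libraries lay above every agrin library. Its log2 fold change was -0.48 (SE 0.28, unadjusted p = 0.0949). The difference was -0.76 within replicates 1 and 2 and -0.16 within replicates 3 and 4. The largest log2 fold change among the members was that of Sfrp2, at 0.71 (SE 0.49, unadjusted p = 0.158 in edgeR). It was above 0 in all 19 alternative fits, from 0.33 to 1.48, and Sfrp2 was called in 0 of them. Sfrp2 was at 4.86, 5.02, 4.39 and 2.83 CPM with agrin and at 4.15, 3.67, 1.18 and 1.40 CPM in the control. The groups thus differed most in replicates 3 and 4, and agrin replicate 3 is the library with liver transcripts. Over the alternative fits, 0 to 5 members had an unadjusted p under 0.05. The median log2 fold change of the 21 members was 0.02, and that of all genes was 0.00.

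With bivalent 13-3B5 against the control, 0 members were called (0% of all genes), and 0 had groups that did not overlap (1.88% of all genes). Sfrp1 was the 1 member with an unadjusted p under 0.05, beside 2.77% of all genes. It was at 3.55, 5.69, 3.34 and 2.66 CPM with bivalent 13-3B5, and the highest of these 4 values reached into the control range. With agrin and 13-3B5xb12 Sfrp1 was at 8.04, 6.78, 2.63 and 4.54 CPM, and with agrin and 11-3F6xb12 at 4.10, 5.64, 3.69 and 3.60 CPM, and both groups overlapped with the control. The log2 fold change of Sfrp1 was -0.64 (SE 0.28, 95% interval -1.22 to -0.06, unadjusted p = 0.0309, adjusted p = 0.999 in edgeR). It was -0.60 within replicates 1 and 2, -0.70 within replicates 3 and 4, and -0.55 without the 3 libraries that stood apart. The members' median log2 fold change was -0.03, against 0.00 over all genes.

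Bivalent 13-3B5 against agrin compared the antibody and the natural activator of MuSK directly. Here 0 members were called (0% of all genes) and 0 had an unadjusted p under 0.05 (2.39% of all genes). Fzd1 alone had groups that did not overlap, beside 2.38% of all genes. Its mean was 87.3 ± 3.74 CPM with the antibody and 96.8 ± 5.57 CPM with agrin (SD, n = 4 each), a log2 fold change of -0.15 (SE 0.07, unadjusted p = 0.0538). It was -0.11 within replicates 1 and 2 and -0.20 within replicates 3 and 4. The median over the members was -0.08 and over all genes 0.00.

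The 2 monovalent antibodies were each compared with agrin alone. With 13-3B5xb12, 0 members were called (0% of all genes), 0 had an unadjusted p under 0.05 (3.83% of all genes) and 0 had groups that did not overlap (2.31% of all genes). The smallest p belonged to Wnt4, a ligand described to bind MuSK. Wnt4 was measured at 1.09, 0.329, 0.590 and 0.666 CPM with agrin and at 1.23, 1.24, 1.40 and 0.742 CPM with agrin and 13-3B5xb12. Its log2 fold change was 0.78 (SE 0.50, unadjusted p = 0.134). In the other groups Wnt4 was at 1.29, 0.511, 1.28 and 1.18 CPM (control), 0.528, 1.00, 0.615 and 1.80 CPM (bivalent 13-3B5) and 0.869, 0.742, 1.18 and 2.13 CPM (agrin with 11-3F6xb12). At these levels counting error alone gives a coefficient of variation of 21.1% in a library of average depth.

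With 11-3F6xb12, 0 members were called (0% of all genes), and 2 members had an unadjusted p under 0.05, beside 3.33% of all genes. These were Fzd1, with a log2 fold change of -0.21 (SE 0.07, 95% interval -0.36 to -0.06, unadjusted p = 0.00919), and the Lrp5 and Lrp6 ligand Dkk2, with 0.59 (SE 0.28, unadjusted p = 0.0478). Fzd1 alone had groups that did not overlap, beside 2.9% of all genes. The Fzd1 difference was -0.11 within replicates 1 and 2 and -0.31 within replicates 3 and 4. Dkk2 was measured at 1.91, 3.94, 4.34 and 2.79 CPM with agrin and at 5.84, 4.70, 3.82 and 5.18 CPM with agrin and 11-3F6xb12, so that 2 agrin libraries reached into the other group. Its difference was 0.84 within replicates 1 and 2 and 0.34 within replicates 3 and 4. Dkk2 was at 3.53, 3.11, 3.43 and 3.71 CPM in the control, 2.11, 4.42, 4.57 and 5.74 CPM with bivalent 13-3B5 and 4.34, 2.26, 5.34 and 4.06 CPM with agrin and 13-3B5xb12. Bivalent 13-3B5 and 13-3B5xb12 overlapped with both of the groups compared, while the control overlapped with agrin and lay below all libraries with 11-3F6xb12.

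Set against each other, the 2 monovalent antibodies gave 0 members called (0% of all genes) and 1 member with an unadjusted p under 0.05, beside 4.22% of all genes. This was again Fzd1, at a log2 fold change of -0.21 with 11-3F6xb12 relative to 13-3B5xb12 (SE 0.07, unadjusted p = 0.00802, adjusted p = 0.992 in edgeR). It was also the 1 member whose groups did not overlap, beside 2.72% of all genes. Without the 3 libraries that stood apart the difference was -0.17, and within replicates 1 and 2 and within replicates 3 and 4 it was -0.17 and -0.26. The members' median was 0.00, as was that of all genes.

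What the fit by treatment could and could not separate differed between members. Replicate number was not part of that fit, so spread that goes with it stayed in the intervals below. Its share of the log2 CPM spread was 78.1% for Wnt11, 66.2% for Sfrp4 and 63.9% for Sfrp2. Intervals from a fit with replicate number are not given here. Of the 126 pairs of a member and a comparison, the 95% interval lay wholly within a 2-fold change in either direction in 72 pairs and within 1.5-fold in 53 pairs. In the remaining 54 pairs it reached 2-fold or more, so that this fit did not exclude a change of that size there. The shortest reach was 0.16 on the log2 scale and the longest was 2.81, for Wnt7b in bivalent 13-3B5 against agrin. In agrin against control, for example, the standard errors had a median of 0.29 over the members and of 0.16 over all genes.

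**Figure D2:**
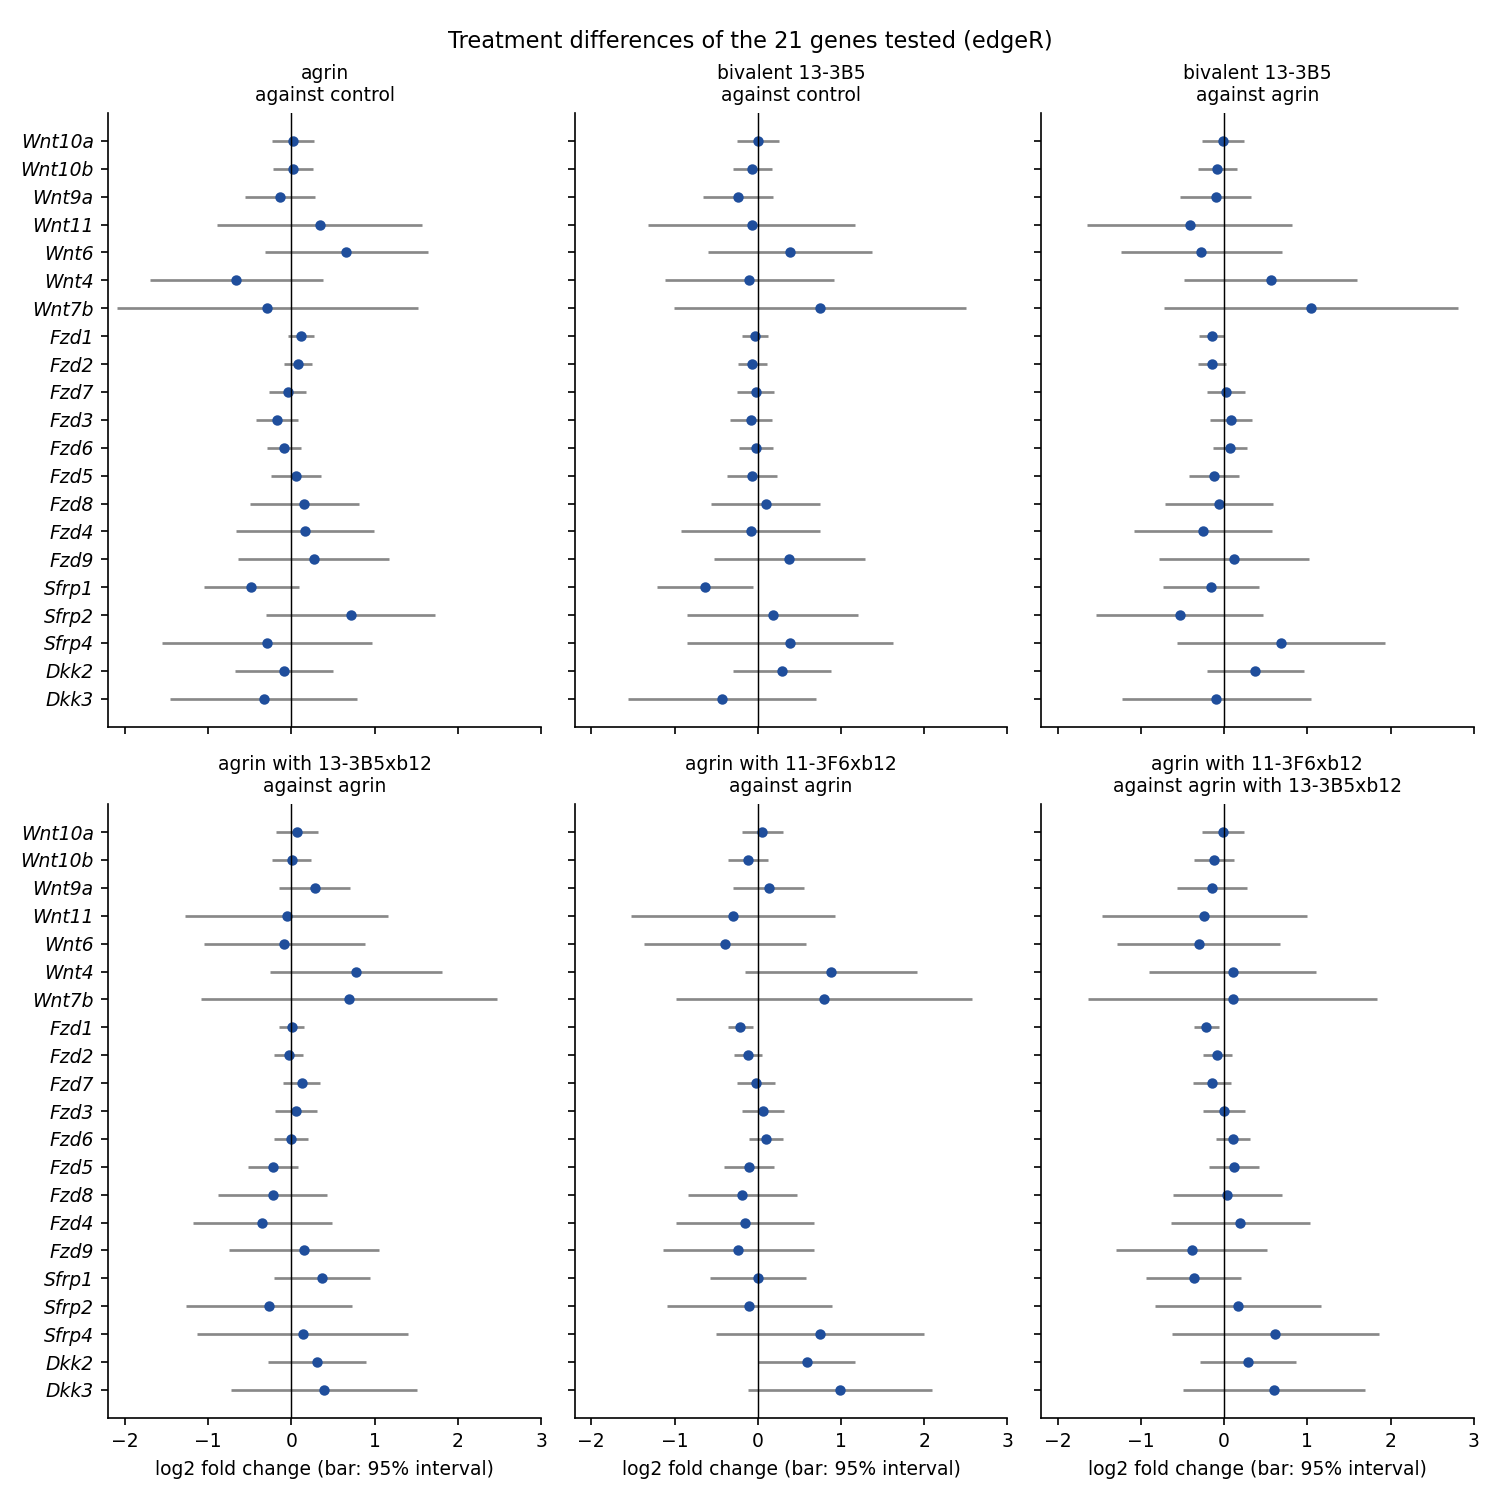
Log2 fold change (point) and its 95% interval (bar) from edgeR for each of the 21 tested genes in each of the 6 comparisons, with a line at 0. The intervals of Fzd1 leave 0 in both comparisons of agrin with 11-3F6xb12, that of Sfrp1 in bivalent 13-3B5 against control and that of Dkk2 in agrin with 11-3F6xb12 against agrin, and 0 of these passed adjustment over all genes.

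More members passed the test for replicate number than any test of treatment. In a fit with treatment and number, edgeR's adjusted p was under 0.05 for 3 of 21 members, beside 7.19% of all genes. They were Wnt11 (adjusted p = 0.000453), Sfrp2 (adjusted p = 0.000577) and Sfrp4 (adjusted p = 0.00125). At an unadjusted p under 0.05 there were 8 members, beside 17.3% of all genes. Without the 3 libraries that stood apart the adjusted p was 0.000391 for Wnt11, 2.96e-06 for Sfrp2 and 0.00482 for Sfrp4, and Fzd3 and Dkk3 were called as well. The split of numbers 1 and 2 from 3 and 4, used below to describe these genes, was known from earlier results of these data.

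Wnt11 (chromosome 7, 98835112 to 98855195), a ligand of the planar polarity route that has been studied in the patterning of the muscle endplate zone, was measured at 3.48, 1.58, 1.28 and 0.769 CPM in control replicates 1 to 4. It was at 2.45, 2.19, 1.23 and 0.899 CPM with bivalent 13-3B5, at 2.64, 4.88, 0.843 and 0.666 CPM with agrin, at 4.34, 2.21, 0.933 and 1.18 CPM with agrin and 13-3B5xb12 and at 2.12, 2.82, 1.37 and 1.05 CPM with agrin and 11-3F6xb12. In all 5 treatments both libraries numbered 1 and 2 lay above both libraries numbered 3 and 4. The same held for Sfrp2, the myotube markers Ckm and Tnnt3, the fibroblast marker Col1a1 and the pathway gene Dact1. The share of all genes split this way was not counted. Wnt11 was picked for its small p for replicate number, so its split adds no support to that test. The 10 libraries of numbers 1 and 2, at 1.58 to 4.88 CPM with a median of 2.54, did not overlap with the 10 of numbers 3 and 4, at 0.666 to 1.37 CPM with a median of 0.989. Their means, 2.87 ± 1.05 and 1.02 ± 0.235 CPM (SD, n = 10 each), differed 2.81-fold. Replicate number went with 78.1% of the spread of its log2 CPM, and treatment with 1.12%. In numbers 3 and 4 its level was near 1 CPM, so the threshold places it differently by number: its mean was 3.01 and 2.73 CPM in numbers 1 and 2 and 1.13 and 0.912 CPM in numbers 3 and 4.

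Sfrp2, a secreted Wnt binder, was measured at 4.15, 3.67, 1.18 and 1.40 CPM in control replicates 1 to 4 and at 4.18, 4.19, 1.01 and 2.44 CPM with bivalent 13-3B5. With agrin it was at 4.86, 5.02, 4.39 and 2.83 CPM, with agrin and 13-3B5xb12 at 5.25, 5.16, 1.19 and 2.66 CPM and with agrin and 11-3F6xb12 at 4.44, 5.78, 2.14 and 3.60 CPM. Numbers 1 and 2 were higher in all 5 treatments, at a mean of 4.67 ± 0.648 against 2.28 ± 1.13 CPM (SD, n = 10 each). Agrin replicate 3, the library with liver transcripts, was the highest of the libraries numbered 3 and 4. Replicate number went with 63.9% of the spread of Sfrp2 and treatment with 18.1%.

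Sfrp4 (chromosome 13, 19623104 to 19632994) was measured at 1.62, 2.79, 0.511 and 1.31 CPM in control replicates 1 to 4, at 3.60, 1.37, 1.14 and 2.10 CPM with bivalent 13-3B5 and at 1.91, 2.25, 0.211 and 0.749 CPM with agrin. It was at 1.64, 2.26, 0.509 and 1.22 CPM with agrin and 13-3B5xb12 and at 2.85, 3.71, 1.00 and 1.05 CPM with agrin and 11-3F6xb12. Replicate 3 was the lowest library of every treatment. The means of numbers 1 and 2 and of numbers 3 and 4 were 2.40 ± 0.819 and 0.980 ± 0.531 CPM (SD, n = 10 each), and number went with 66.2% of the spread.

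Dkk3 and Fzd3 came next and were not called in the fit of all libraries. Dkk3 (adjusted p = 0.0773 in edgeR) was measured at 2.81, 2.79, 0.358 and 1.95 CPM in the control, 1.39, 2.60, 0.834 and 1.07 CPM with bivalent 13-3B5 and 2.00, 1.17, 1.77 and 1.33 CPM with agrin. It was at 3.97, 2.31, 0.679 and 1.31 CPM with agrin and 13-3B5xb12 and at 3.81, 4.85, 2.82 and 1.05 CPM with agrin and 11-3F6xb12, and numbers 1 and 2 averaged higher in all 5 treatments. Fzd3, a receptor of the planar polarity route (adjusted p = 0.0628 in edgeR), followed another order. It was measured at 19.9, 27.9, 26.9 and 22.0 CPM in control replicates 1 to 4, at 22.1, 23.5, 25.9 and 20.001 CPM with bivalent 13-3B5 and at 18.8, 22.5, 23.6 and 21.2 CPM with agrin. With agrin and 13-3B5xb12 Fzd3 was at 23.1, 21.9, 25.4 and 19.1 CPM and with agrin and 11-3F6xb12 at 22.8, 22.3, 25.5 and 18.98 CPM. Its means by number were 21.3, 23.6, 25.5 and 20.3 CPM, so that number 3 was highest and numbers 1 and 4 were lowest. Leaving out agrin with 13-3B5xb12 replicate 1 brought its adjusted p to 0.0301. Wnt10a (adjusted p = 0.0849 in edgeR) had means of 30.2, 29.3, 25.9 and 24.5 CPM in numbers 1 to 4.

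**Figure D3:**
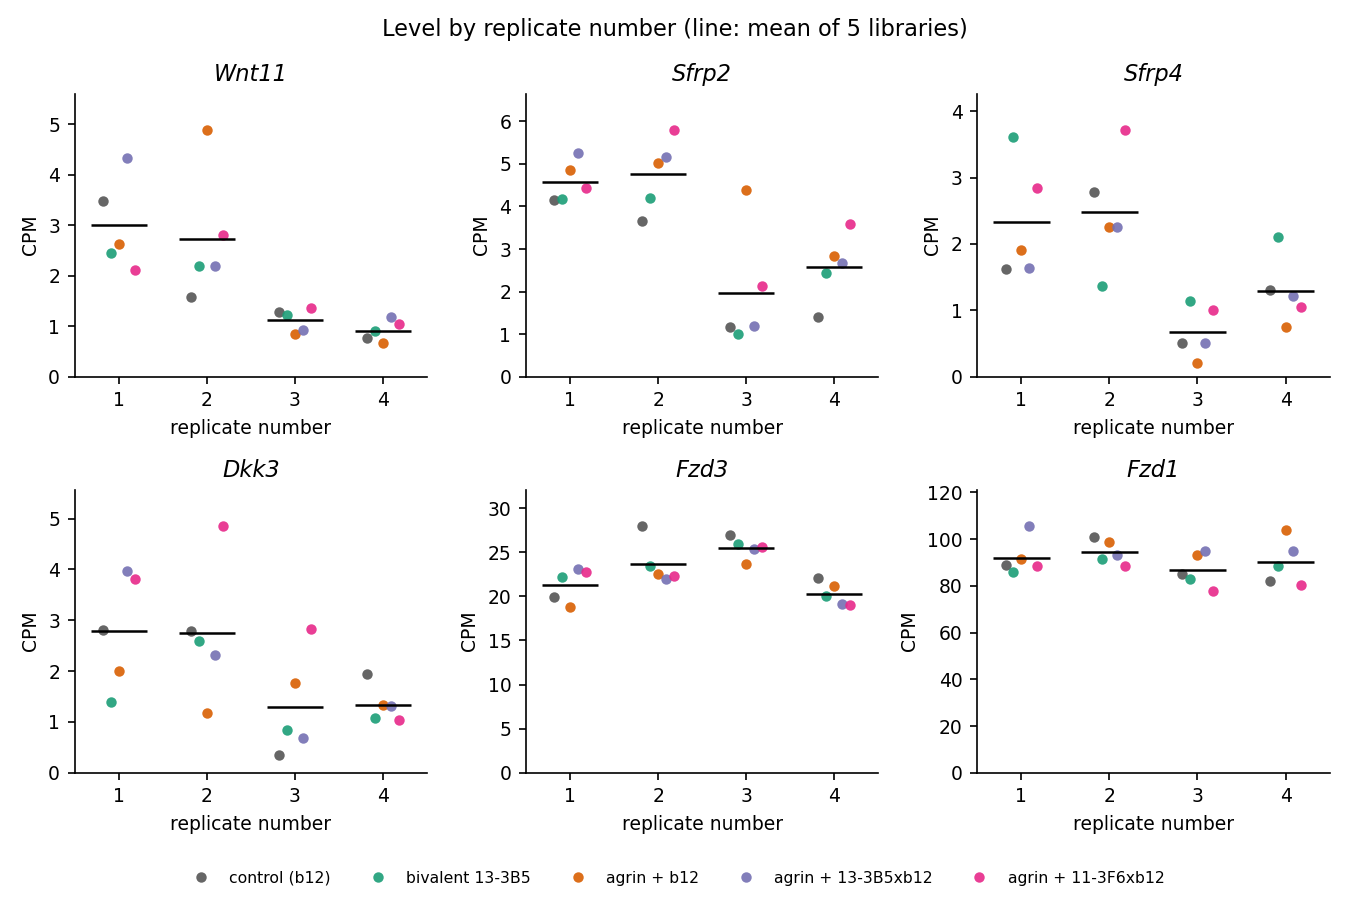
CPM (axes from 0) by replicate number for Wnt11, Sfrp2, Sfrp4, Dkk3, Fzd3 and Fzd1, with 1 point per library coloured by treatment and a line at the mean of the 5 libraries of a number. Wnt11 in numbers 1 and 2 lies above all libraries of numbers 3 and 4, Fzd3 is highest in number 3, and Fzd1 overlaps across the numbers.

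Other genes moved with replicate number as well. Of the myotube markers, Ckm and Tnnt3 were called, 2 of 8, and the summed level was 1.10-fold higher in numbers 1 and 2, where it lay between 9125 and 10583 CPM, than in numbers 3 and 4, where it lay between 8274 and 9871 CPM. Ckm, the muscle creatine kinase, had means of 391 and 238 CPM in these 2 sets of libraries. The myotube markers did not all go this way. Myog, with means of 564 and 597 CPM, and Myh8, with 24.1 and 27.9 CPM, were lower in numbers 1 and 2. The others averaged higher there, but Chrna1 and Acta1 only by ratios of 1.01 and 1.04. Of the dividing-cell markers 1 of 5 was called, Ccnb1, with means of 8.79 and 5.70 CPM, and of the Schwann cell markers S100b, with means of 2.31 and 0.827 CPM. The fibroblast markers, of which 0 of the 5 tested were called, summed to 1278 to 1486 CPM in numbers 1 and 2 and to 1259 to 1479 CPM in numbers 3 and 4. That sum is mostly Dcn and Col1a2, and single markers differed from it in either direction. Dcn was lower in numbers 1 and 2, with means of 827 CPM there and 871 CPM in numbers 3 and 4. Thy1, which was not tested, was lower there too, with means of 0.0247 and 0.106 CPM. Col1a2, with means of 474 and 441 CPM, and Pdgfra, with 18.2 and 15.1 CPM, were higher in numbers 1 and 2, as were Col1a1 and Lum. Col1a1 had means of 39.9 and 23.6 CPM, a ratio of 1.69, with numbers 1 and 2 above 3 and 4 in all 5 treatments (adjusted p = 0.0720 in edgeR), and Lum had means of 9.20 and 7.05 CPM (adjusted p = 0.132). The part of these genes in the differences of Wnt11, Sfrp2 and Sfrp4 was not tested. Fewer cells of a type and less RNA per cell cannot be told apart in such bulk libraries.

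Over the 21 members, the median share of the spread was 14.3% with treatment and 18.1% with replicate number, beside 17.3% and 18.1% over all genes. The share was larger for number than for treatment in 11 of the 21 members and in 51.1% of all genes, so as a whole the members stood near the other genes. Wnt11, Sfrp4, Sfrp2, Fzd3 and Wnt10a each had over 50% with number, and Fzd1 was the 1 member with such a share for treatment.

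**Figure D4:**
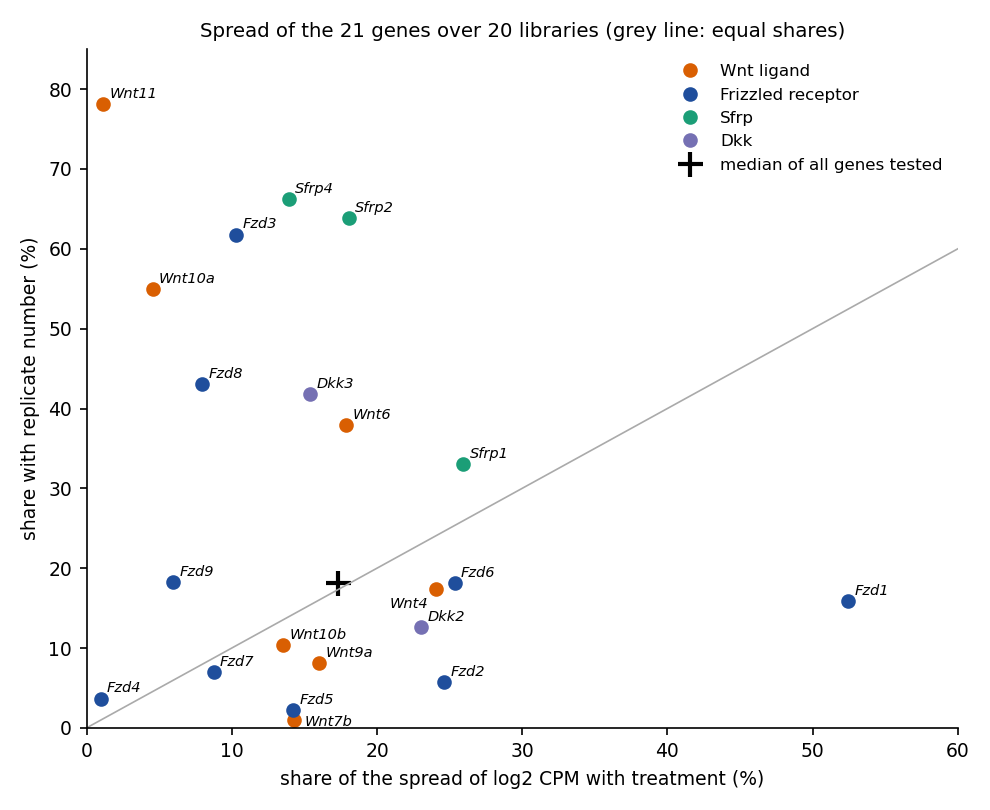
Share of the spread of log2 CPM over the 20 libraries that goes with treatment (horizontal axis, percent) and with replicate number (vertical axis, percent), 1 point for each of the 21 tested genes, with the median of all tested genes as a cross. Wnt11 lies at 78.1% for number and 1.12% for treatment, Fzd1 at 15.9% and 52.5%.

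The wider pathway was followed with a list of 79 genes by role, of which 61 were tested and 55 had a mean above 1 CPM. Of these 61 genes, 0 were called by edgeR's adjusted p in the test among 5 treatments or in any of the 6 comparisons. At an unadjusted p under 0.05 there was 1 in the test among 5 treatments. This stood beside 2.25% of all genes. Among the comparisons there were 4 in agrin against control (2.85% of all genes), 2 in bivalent 13-3B5 against control (2.77%) and 3 in bivalent 13-3B5 against agrin (2.39%). There were 4 and 5 for 13-3B5xb12 and 11-3F6xb12 against agrin (3.83% and 3.33%), and 3 between these antibodies (4.22%). The co-receptors that Wnts and Dkk proteins bind were present, with Lrp6 at 74.3 ± 8.10 CPM and Lrp5 at 21.3 ± 2.51 CPM (SD, n = 20). The receptors Ror1 and Ror2 were at 5.52 ± 1.85 and 1.76 ± 0.674 CPM. Axin2, the usual reporter gene of beta-catenin signalling, was at 4.24 ± 1.28 CPM over the 20 libraries. It was at 4.69 ± 1.61 CPM in the control, 4.63 ± 1.39 CPM with agrin and 3.56 ± 1.68 CPM with bivalent 13-3B5. With agrin and 13-3B5xb12 it was at 4.42 ± 1.02 CPM and with agrin and 11-3F6xb12 at 3.90 ± 0.864 CPM (SD, n = 4 each). Its means were 4.87 CPM in numbers 1 and 2 and 3.60 CPM in numbers 3 and 4, and it was not called for replicate number.

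The smallest p of the list belonged to a different gene in each of the 6 comparisons. Lef1, a nuclear partner of beta-catenin, had a log2 fold change of 0.82 in agrin against control (SE 0.29, unadjusted p = 0.00951), from 3.19 ± 1.39 to 5.62 ± 2.31 CPM (SD, n = 4 each). Its agrin libraries were at 3.36, 7.79, 7.42 and 3.91 CPM, so that replicates 2 and 3 were high and the other two lay in the range of the control. Myc, a target of beta-catenin among many other inputs, had 0.59 in agrin with 13-3B5xb12 against agrin (SE 0.20, unadjusted p = 0.00618). Its 4 agrin libraries, at 2.77, 3.29, 3.58 and 3.58 CPM, lay below all libraries of the other 4 groups, where the lowest was at 3.60 CPM. As all of these comparisons use the agrin libraries, they repeat 1 observation. Gsk3b, the kinase that marks beta-catenin for destruction, had -0.33 in bivalent 13-3B5 against control (SE 0.13, unadjusted p = 0.0166). Its control libraries were at 39.0, 62.9, 50.7 and 41.6 CPM, and the highest, replicate 2, is among those that stood apart. With bivalent 13-3B5 it was at 41.1, 37.4, 36.6 and 39.1 CPM, so that the groups overlapped. Trabd2b, a Wnt-cleaving protease, had -0.82 in bivalent 13-3B5 against agrin (SE 0.36, unadjusted p = 0.0299). Ccnd1, a cyclin, had 0.32 in agrin with 11-3F6xb12 against agrin (SE 0.13, unadjusted p = 0.0175). Tnks, a tankyrase that destabilises Axin, had -0.28 between the 2 monovalent antibodies (SE 0.09, unadjusted p = 0.00543).

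For replicate number, 3 of the 61 pathway genes were called, beside 7.19% of all genes. Tnfrsf19 (adjusted p = 1.68e-05 in edgeR), a receptor listed among beta-catenin targets, had means of 7.25 ± 1.25 CPM in numbers 1 and 2 and 3.25 ± 1.79 CPM in numbers 3 and 4 (SD, n = 10 each). Dact1 (adjusted p = 0.00928), a binder of Dishevelled, had means of 2.38 and 0.967 CPM, and Ror1 (adjusted p = 0.0163), the receptor kinase, of 6.75 and 4.29 CPM. All 3 averaged higher in numbers 1 and 2 in each of the 5 treatments, as Wnt11, Sfrp2 and Sfrp4 did.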

How the data were processed

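Total RNA of 20 C2C12 myotube libraries was sequenced as 150-base read pairs after ribosomal RNA removal with a stranded kit, per the labels' protocols. The deposited values are whole-number counts per gene, not normalized. The submitters' processing notes name GRCm38, Trim Galore 0.6.6, cutadapt 2.10, STAR 2.7.6a, HTSeq 0.12.4 and DESeq2 1.32.0, with no roles. Annotation release and strand setting are not given in the sources used here, so overlapping or near-identical genes may share reads. Positions and exon lengths are from GENCODE M21, matched by Ensembl ID.

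All 20 libraries entered one robust quasi-likelihood fit by treatment (edgeR 4.0.16 in R 4.3.3, filterByExpr minimum count 10 and minimum total 15, scaling by TMM, the trimmed mean of M-values), with two-sided F-tests, Benjamini-Hochberg adjustment over all tested genes and a threshold of 0.05. CPM uses TMM-scaled totals. Replicate number was tested beside treatment in a second fit. A standard error is the log2 fold change over the root of F. Log2 CPM used a prior count of 2.

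Values in every library are given for the 2 members highest per kb in each class, the member with the smallest p in each comparison and the 4 with the smallest p for replicate number. From the wider list, the smallest p of each comparison and 9 set genes are named. Dkk2, Dkk3, the marker genes and the pathway genes called for replicate number are named for their values. The members and lists were chosen with earlier results of these data known. Scripts were tested on simulated counts. No 2 libraries of a treatment agreed within sampling noise (chi-square per gene of at least 5.17). Alternatives were the replicate block, DESeq2 size factors, the DESeq2 1.42.0 test, other filters, fits of only the 2 groups and leaving out each library. Chosen after seeing the data were leaving out 3 libraries, numbers 1 and 2 or 3 and 4 only, and leaving out mitochondrial genes. Limits at 3 counts and counting errors cover counting only, since amplified read pairs are not independent.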

Additional observations from a re-analysis of the deposited data

Results flagged for a closer look

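In each of 60 groups of 4 libraries (12 genes in 5 treatments) the gap between an extreme library and its neighbour was compared with the 95% critical value of Dixon's test. It was passed in 3 groups, and chance gives about 1 in 20, or 3. Agrin with 13-3B5xb12 replicate 1 was far above the other 3 libraries of its treatment in Fzd1, at 105 CPM against 93.1 to 95.0 CPM, and in Wnt10a, at 34.4 CPM against 25.9 to 27.1 CPM. Control replicate 2 was far below the others in Wnt4, at 0.511 CPM against 1.18 to 1.29 CPM. Both libraries are among the 3 that stood apart.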

How the results depend on the processing

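The count of members above 1 CPM was 20, and 13 when each library had to reach it; leaving out each library in turn gave 19 to 20. In every alternative run, 0 members were called in any treatment comparison, although the sign of the log2 fold change turned in at least 1 alternative for 79 of 126 pairs of member and comparison and in none for 47. At an unadjusted p under 0.05, the alternatives gave 0 to 5 members in agrin against control and at most 3 in every other comparison. Of all genes, 0 were called in the 7 treatment tests of the full fit, and leaving out each library gave 0 to 0. Without the filter on low counts, 50 genes were called among 5 treatments, 4 in agrin against control, 2 in bivalent 13-3B5 against control, 7 in bivalent 13-3B5 against agrin, 6 and 13 for 13-3B5xb12 and 11-3F6xb12 against agrin and 27 between these antibodies. With the replicate block the counts were 2 among 5 treatments, 2 for 11-3F6xb12 against agrin and 5 between the antibodies, and with the block and without the 3 libraries that stood apart 10, 16 and 18. Replicates 1 and 2 alone gave 3, 1 and 6, and replicates 3 and 4 alone gave 6, 9 and 7 for the same tests. The DESeq2 test gave 2 between the antibodies. The cause of these differences was not tested. The replicate block changed no call of a member. Same-number libraries deviated together only weakly, with correlations over tested genes of 0.00978 to 0.117, and in 0 of 6 comparisons were all 4 pairs over 0.1. Over the 11149 more abundant genes (mean log2 CPM over 1) they were 0.00824 to 0.325, and 4 comparisons met that limit. Of the 20 libraries, 12 correlated best with a library of their own number. The summary correlation was 0.0769 for the same number and 0.0816 for the other number of the same set (1 and 2, or 3 and 4). It was -0.0792 between the sets, so libraries deviated together by set about as much as by number. For replicate number, 1050 genes were called and 1652 without the 3 libraries. Members called were 3, with 6 by DESeq2 (adding Fzd3, Wnt10a and Dkk3), 5 without the 3 libraries (adding Fzd3 and Dkk3), and 3 to 4 on leaving out each library. Wnt11, Sfrp2 and Sfrp4 were called in all of these. Depth limits the members under about 1 CPM most: counting error alone was 21.1% for Wnt4 and 28.3% for Wnt7b per library, against 2.24% for Fzd1.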
